A study of Arvicanthis niloticus with 5 samples.

Results

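The genes described here encode 10 neuropeptide precursors that are known from the retina: Vip, Npy, Tac1, Sst, Adcyap1, Penk, Cck, Cartpt, Nppb and Crh. They were chosen by symbol, without regard to case, in the mouse, rat or human column of the deposited ortholog table. All 10 carried a symbol, each on exactly 1 transcript, out of 13983 genes with a symbol in all. RNA came from eye tissue of wild-type Nile rats (Arvicanthis niloticus), a day-active African rodent. The labels list 5 eye samples in 1 group, and their protocols state that RNA of 5 rats was pooled into the library of the species. No age, sex, light condition or time of day is given in the labels.

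The deposited table holds 1 column of values for the series, over 64967222 mapped fragments and 124439 transcripts, so no level has a replicate error and no comparison between animals could be made. Brackets after a value hold its 95% interval, which covers counting error only. A fragment is 1 sequenced piece of cDNA. FPKM scales the fragments of a transcript to 1 kilobase of its full length and to 1000000 mapped fragments. This gives a level per length, by which genes are set side by side here. No correction for fragment size was made, and its effect on short transcripts was not tested. The whole eye was sequenced, so the retina is a part of the tissue behind each value. Whether the column sums the 5 labelled samples or holds 1 library is not stated in the labels or the file, and it is called a pool here in either case. Fewer cells of a type and less RNA per cell cannot be told apart in such a pool. With a single column, genes that follow the same pattern across samples could not be sought.

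Neuropeptides are made as longer precursor proteins that enter the secretory pathway. Convertases cut the precursor at basic residues, a carboxypeptidase trims the ends, and many peptides are then amidated before they are stored in dense core granules. In the retina most of the peptides described here are known from subsets of amacrine cells, the inhibitory interneurons of the inner retina, and some from ganglion cells, whose axons form the optic nerve. Released peptides act on G protein-coupled receptors or, for natriuretic peptides, on receptors that make cyclic GMP.

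Penk had the highest level of the 10 precursor genes and Nppb the lowest. The order by FPKM was Penk (23.9), Cartpt (17.3), Tac1 (10.8), Sst (8.16), Cck (7.42), Npy (6.60), Vip (5.11), Adcyap1 (1.60), Crh (1.07) and Nppb (0.553). The distance from Penk to Nppb was 43.2-fold [25.5 to 73.0]. Of the 10 genes, 9 reached FPKM 1, the level taken here as detected, against 93.2% of all named genes. FPKM 5 was reached by 7 of the 10 precursors and by 59.8% of all named genes, and FPKM 10 by 3 of the 10 and by 34% of all named genes. The median of the 10 precursors was 7.01 FPKM, beside 6.50 FPKM over all named genes. The share of precursors at each of these levels was thus near the share of all genes.

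**Figure D1:**
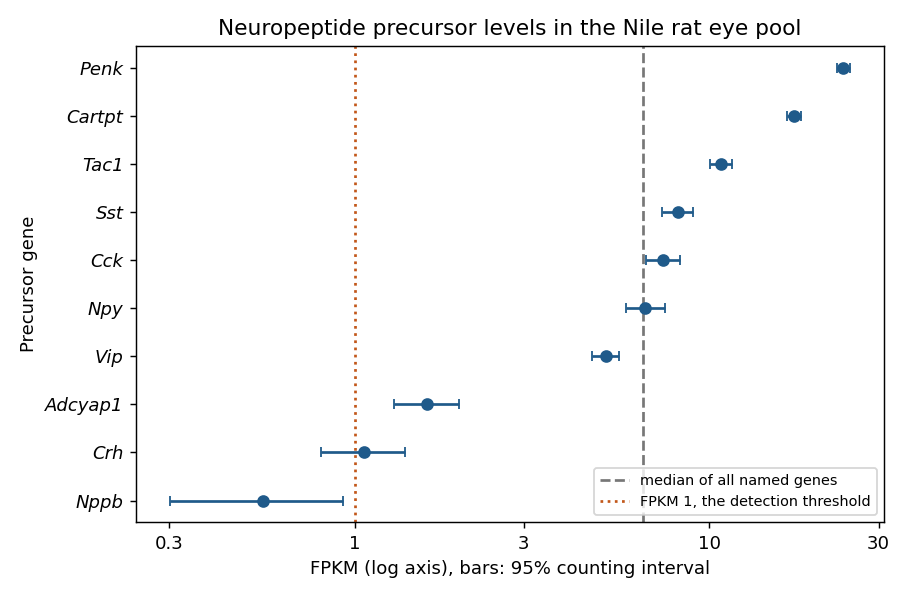
FPKM of the 10 precursor genes on a log axis, in order of level, with bars for the 95% counting interval; the dashed line is the median of all named genes (6.50 FPKM) and the dotted line FPKM 1. Penk, Cartpt and Tac1 lie above 10 FPKM, and Nppb lies below FPKM 1 with its whole interval.

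A few genes carried most of the precursor signal. The 10 levels added up to 82.5 FPKM [80.3 to 84.7], which was 0.0335% of the FPKM of all named genes. Penk and Cartpt together held 49.9% of that sum, and with Tac1 the share was 63.0%. Adcyap1, Crh and Nppb together held 3.90%.

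Penk encodes proenkephalin, the precursor of the opioid peptides Met-enkephalin and Leu-enkephalin. It stood at 23.9 FPKM [22.9 to 24.9], from 2224.5 estimated fragments on a transcript of 1435 nt. Of all named genes, 85.7% had a lower FPKM. The next gene in the order, Cartpt, encodes the precursor of the CART peptides, which act on feeding in the brain and in the mouse retina mark a class of direction-selective ganglion cells. Cartpt reached 17.3 FPKM [16.5 to 18.1] from 1923.5 fragments on 1714 nt, the longest transcript of the 10. Penk was 1.38-fold [1.30 to 1.47] above it.

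Tac1 encodes the precursor of the tachykinins substance P and neurokinin A. It stood at 10.8 FPKM [10.1 to 11.6], from 773.45 fragments on 1101 nt. Cartpt was 1.60-fold [1.47 to 1.74] above Tac1, and Tac1 was 1.33-fold [1.17 to 1.50] above Sst. These first 3 genes were therefore separated from each other, and from the rest, by more than counting error.

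Sst, Cck and Npy lay close together around the middle of all named genes. Sst encodes somatostatin, an inhibitory peptide, and was at 8.16 FPKM [7.36 to 9.02] from 382 fragments. Cck encodes cholecystokinin, a peptide of gut and brain, and was at 7.42 FPKM [6.64 to 8.28] from 324 fragments. Npy encodes neuropeptide Y and was at 6.60 FPKM [5.81 to 7.47] from 250.5 fragments. Sst over Cck was 1.10-fold [0.948 to 1.27] and Cck over Npy 1.12-fold [0.953 to 1.33], so neither neighbouring pair was resolved at this depth. The outer genes of the trio were resolved, with Sst 1.24-fold [1.05 to 1.45] above Npy. Between 50.6% (Npy) and 58.7% (Sst) of named genes had a lower FPKM than these 3.

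Vip and Adcyap1 encode related peptides of the secretin family, vasoactive intestinal peptide and the pituitary adenylate cyclase-activating peptide PACAP. In the retina PACAP is known from the ganglion cells that contain the photopigment melanopsin, and VIP from amacrine cells. Vip was at 5.11 FPKM [4.68 to 5.57] from 517 fragments on 1558 nt. Adcyap1 was at 1.60 FPKM [1.29 to 1.97] from 90 fragments on 865 nt. Vip was 3.19-fold [2.55 to 3.99] above Adcyap1, the widest step between any neighbours in the order. Of all named genes, 41.0% lay below Vip and 12.6% below Adcyap1.

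Crh and Nppb were near the lower end of what was quantified. Crh encodes corticotropin-releasing hormone, the hypothalamic peptide that drives the stress axis, and in the mouse retina it marks types of amacrine cell. It was at 1.07 FPKM from 56 fragments on 809 nt, and its interval of 0.805 to 1.38 includes FPKM 1. Nppb, which encodes B-type natriuretic peptide, was at 0.553 FPKM [0.302 to 0.927] from 14 fragments on 390 nt. Only 7.45% of named genes lay below Crh and 1.56% below Nppb. Adcyap1 over Crh was 1.50-fold [1.08 to 2.10] and Crh over Nppb 1.93-fold [1.07 to 3.46], with intervals that end close to 1.

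**Figure D2:**
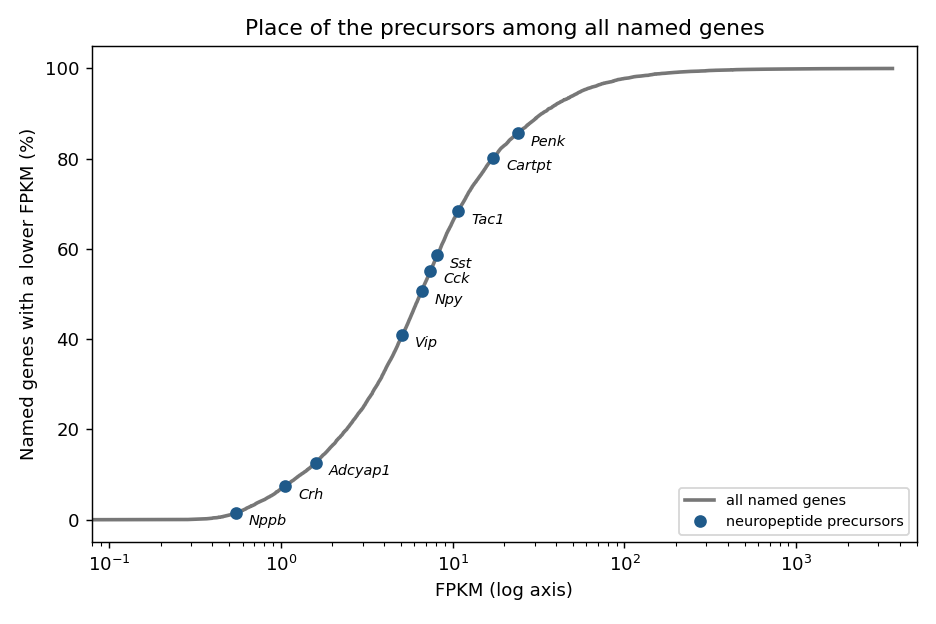
Percent of named genes with a lower FPKM (vertical axis) against FPKM on a log axis; the line holds all 13983 named genes and the points are the 10 precursors. The precursors run from 1.56% (Nppb) to 85.7% (Penk) and 6 of the 10 lie above the median gene.

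Over all 45 pairs of precursors, 43 ratios had an interval that left out 1. The other 2 were Sst with Cck and Cck with Npy. Of the 9 steps between neighbours, 7 were resolved in this sense. These intervals hold counting error and no variation between animals.

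All 10 transcripts were shorter than the median transcript with a symbol, 2156 nt, and ran from 390 nt (Nppb) to 1714 nt (Cartpt). Set against the 5280 transcripts with a symbol in that length range, whose median was 5.00 FPKM, Vip moved from the 41.0% place among named genes to 50.5%, Adcyap1 from 12.6% to 26.6% and Crh from 7.45% to 17.2%. Penk was at 82.8% and Nppb at 1.84% on this measure. It ranks single transcripts, while the place among named genes ranks sums over transcripts. Part of each move may come from that. In 6 precursors (Sst, Cck, Vip, Adcyap1, Crh and Nppb) the estimated fragments were a whole number. In Penk, Cartpt, Tac1 and Npy they were fractional, as in 39.3% of all transcripts, so some fragments had been divided with other transcripts, an error that the intervals do not hold. All 10 symbols also name a gene of the Nile rat in RefSeq.

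Length set part of the order. By fragments, without division by length, Vip (517) stood in place 4, ahead of Sst (382), Cck (324) and Npy (250.5), while by FPKM it was in place 7. The other 6 genes kept their places. The step from Npy down to Vip, 1.29-fold [1.11 to 1.50] by FPKM, thus depends on the transcript of 584 nt for Npy and of 1558 nt for Vip. Whether each transcript is complete was not tested.

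**Figure D3:**
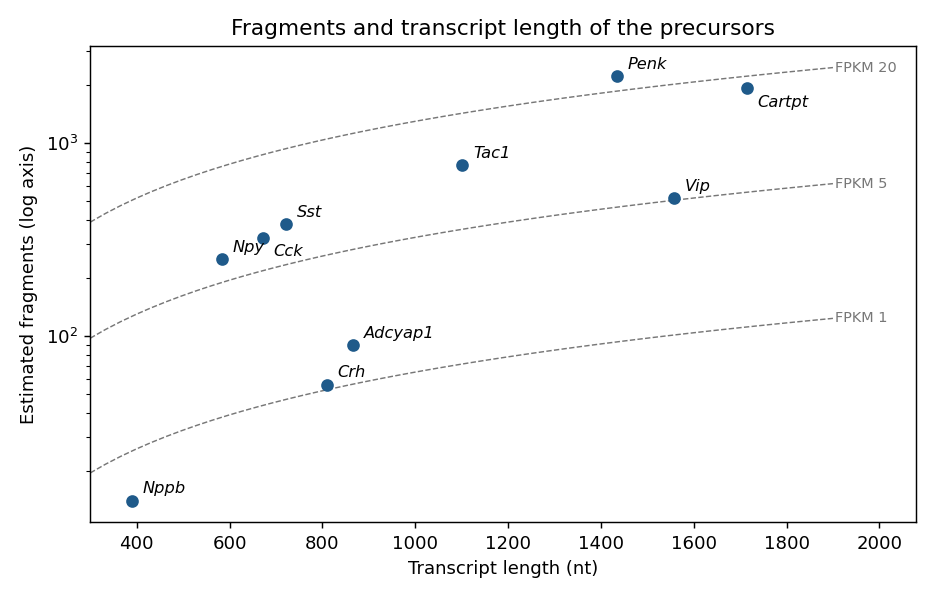
Estimated fragments on a log axis against transcript length in nt for the 10 precursors; dashed lines join points of equal FPKM (1, 5 and 20). Vip has more fragments than Sst, Cck and Npy but lies lower in FPKM because its transcript is longer.

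Receptors of these peptides had a lower median than the precursors, but some of them exceeded their own precursor. Of the 26 receptor genes listed, 14 carried a symbol, each on 1 transcript. FPKM 1 was reached by 12 of the 14 (85.7%) and by 93.2% of all named genes. The median of the 14 receptors was 1.80 FPKM. They formed 16 pairs of a precursor with a measured receptor of its peptide family, Npr2 with Nppb included: the precursor was higher beyond counting error in 7 pairs, the receptor in 5, and 4 pairs were not resolved. For Penk no transcript carried the symbols of the opioid receptors Oprd1, Oprm1 and Oprk1, and for Cck none carried Cckar or Cckbr. Npy2r, Npy6r, Tacr2, Sstr3, Sstr4, Sstr5 and Crhr2 likewise had no symbol, and none of these receptors was analysed here. No receptor was listed for Cartpt peptides, apart from the orphan receptor Gpr160, a proposed CART receptor, at 4.18 FPKM.

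The VIP and PACAP receptors were unequal. Vipr2, which binds both peptides, was at 6.77 FPKM [6.43 to 7.12] and Vipr1, which also binds both, at 1.45 FPKM [1.25 to 1.66], a ratio of 4.68-fold [4.03 to 5.43]. Vipr2 was 1.33-fold [1.20 to 1.46] above Vip and 4.23-fold [3.42 to 5.23] above Adcyap1. Adcyap1r1, the PACAP-preferring receptor, was at 1.83 FPKM [1.66 to 2.02] and was not resolved from Adcyap1 (1.14-fold [0.910 to 1.44]). Its transcript carried the symbol in the human column only.

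The receptors for neuropeptide Y were low. Npy1r was at 1.02 FPKM [0.838 to 1.23], Npy5r at 0.719 FPKM [0.451 to 1.09] on a transcript of 471 nt, and Npy4r at 0.586 FPKM [0.506 to 0.675], named in mouse only by its older symbol Ppyr1. Npy itself was 6.47-fold [5.17 to 8.10] above Npy1r. Of the tachykinin receptors, Tacr3, which prefers neurokinin B, was at 3.67 FPKM [3.43 to 3.92] and Tacr1, the substance P receptor, at 1.77 FPKM. Tac1 was 6.09-fold [5.30 to 7.00] above Tacr1 and 2.95-fold [2.68 to 3.25] above Tacr3.

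Sstr1, a somatostatin receptor, was nearly level with its ligand. It stood at 7.69 FPKM [7.37 to 8.03], and Sst over Sstr1 was 1.06-fold [0.950 to 1.18]. Sstr2 was lower, at 1.11 FPKM [0.912 to 1.34], so that Sstr1 was 6.93-fold [5.72 to 8.40] above it. Crhr1, the main receptor for Crh, was at 1.15 FPKM [0.985 to 1.33] and was not resolved from Crh.

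All 3 natriuretic peptide receptors stood above Nppb beyond counting error. Npr3, the clearance receptor that removes natriuretic peptides, was at 10.8 FPKM [10.5 to 11.1], Npr2, the guanylyl cyclase for C-type natriuretic peptide, at 7.11 FPKM [6.78 to 7.44], and Npr1, the guanylyl cyclase for the A and B types, at 2.49 FPKM [2.27 to 2.72]. Npr1 was 4.50-fold [2.64 to 7.65] and Npr3 19.6-fold [11.6 to 33.1] above Nppb. The precursors of the other natriuretic peptides, Nppa at 1.22 FPKM and Nppc at 1.08 FPKM, were also above Nppb, by 2.20-fold [1.24 to 3.90] and 1.95-fold [1.03 to 3.71].

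**Figure D4:**
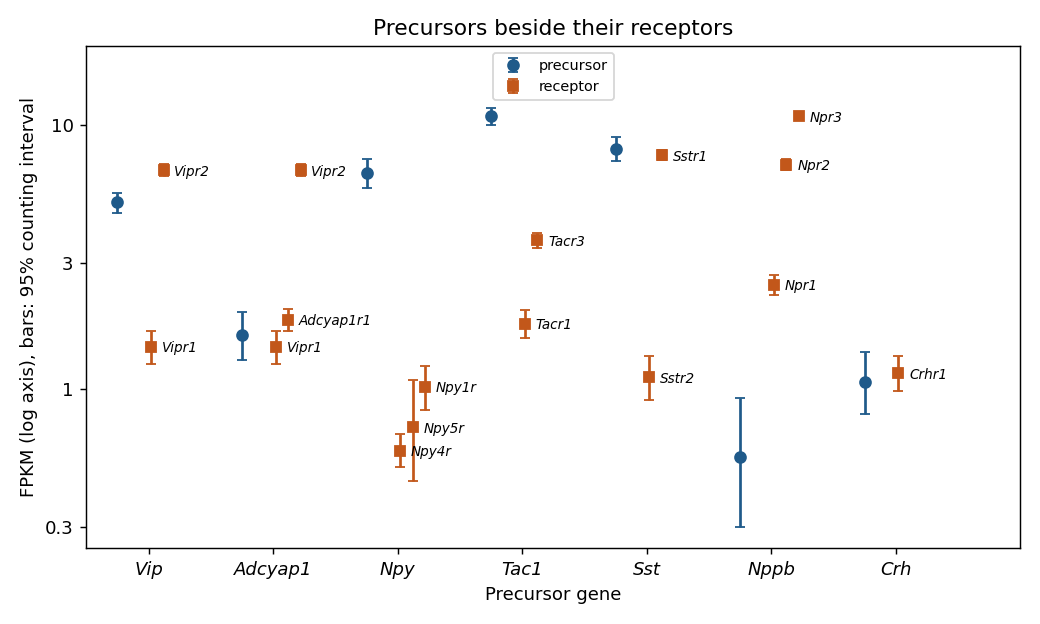
FPKM on a log axis of 7 precursors (circles) and of their measured receptors (squares), with bars for the 95% counting interval; Vipr1 and Vipr2 appear under both Vip and Adcyap1. Npy and Tac1 lie above all their measured receptors, Nppb lies below all 3 natriuretic peptide receptors, and Sst and Sstr1 lie at about the same level.

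Among proteins that bind the peptides or assist their receptors, Crhbp was highest. It encodes a secreted protein that binds and sequesters CRH, and at 19.5 FPKM [18.8 to 20.3] it was 18.3-fold [14.1 to 23.9] above Crh. The receptor activity-modifying proteins Ramp2 and Ramp1 followed at 8.94 and 8.41 FPKM, and Mrap2 was lowest at 2.96 FPKM. All 7 genes of this list, and 93.2% of all named genes, reached FPKM 1. The median of the list was 5.01 FPKM.

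Other peptide precursors gave a scale for the 10. Of 59 further precursor genes, 28 carried a symbol. FPKM 1 was reached by 24 of the 28 (85.7%) and by 93.2% of all named genes. The median of the 28 was 1.89 FPKM. The highest were Agt (angiotensinogen, 35.8 FPKM), Nucb2 (precursor of nesfatin, 35.3 FPKM) and Npvf (precursor of RFamide peptides, 31.8 FPKM), and the lowest was Ghrh (0.510 FPKM). Those 3 exceeded Penk. Close relatives of the 10 were set beside them after their values were seen. Tac2, the neurokinin B precursor, was at 17.5 FPKM [16.3 to 18.8] and 1.62-fold [1.47 to 1.79] above Tac1. Pdyn, the dynorphin precursor, summed to 17.4 FPKM [16.7 to 18.0] over 2 transcripts, and Penk was 1.37-fold [1.30 to 1.45] above it. With the highest transcript in place of the sum, Pdyn was at 9.10 FPKM. Pomc, the third opioid precursor gene measured, was at 3.81 FPKM. Cort, the precursor of the somatostatin relative cortistatin, was at 0.722 FPKM, and Sst was 11.3-fold [6.36 to 20.1] above it.

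The enzymes that turn precursors into peptides were higher than any precursor at their top. Cpe, the carboxypeptidase that trims cut peptides, was at 172 FPKM [169 to 175], which was 7.21-fold [6.90 to 7.54] above Penk. Ctsl, cathepsin L, was at 72.3 FPKM and Pam, the amidating enzyme, at 61.8 FPKM. The lowest was Corin, the convertase of pro-natriuretic peptides, at 0.609 FPKM on a transcript of 354 nt. Of the neuroendocrine convertases, named after their values were seen, Pcsk2 was at 7.04 FPKM and 3.83-fold [3.47 to 4.23] above Pcsk1 at 1.84 FPKM. All 19 enzymes listed carried a symbol, with a median of 7.04 FPKM. FPKM 1 was reached by 18 of them (94.7%) and by 93.2% of all named genes. Cpe and Ctsl are made in many cell types, so their levels are not a measure of peptide-making cells.

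Proteins of the dense core granule had the highest median of the peptide-related lists, 17.2 FPKM. Of 20 listed genes, 18 carried a symbol. All 18 reached FPKM 1, beside 93.2% of all named genes. FPKM 10 was reached by 13 (72.2%), beside 34% of all named genes. Scg5, a chaperone of the convertase encoded by Pcsk2, was highest of the 18 at 147 FPKM. It was followed by Rab3a, a GTPase of secretory vesicles, at 55.6 FPKM over 2 transcripts, and by the granin Scg2 at 44.7 FPKM. Syt10 was lowest at 2.44 FPKM. Peptidases that degrade neuropeptides had a median of 7.23 FPKM, and all 18 with a symbol reached FPKM 1, beside 93.2% of all named genes. Npepps (puromycin-sensitive aminopeptidase) led at 40.9 FPKM, ahead of Dpp3 at 16.4 and Dpp7 at 15.9 FPKM, and Lnpep was lowest at 1.24 FPKM.

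**Figure D5:**
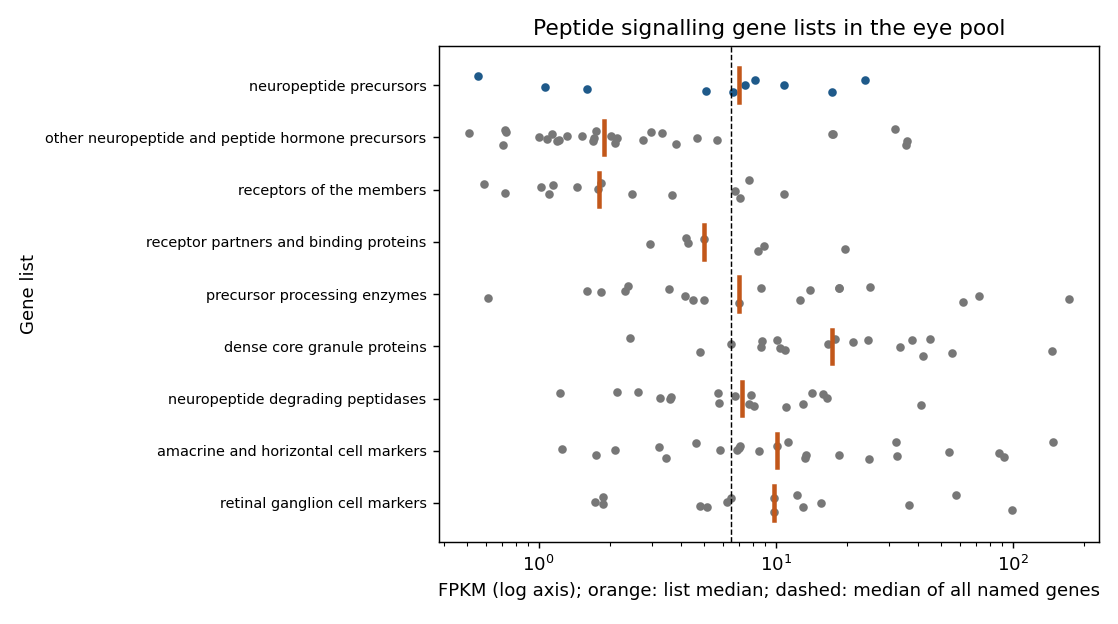
FPKM on a log axis of each measured gene (points) in the 10 precursors, in 6 lists of peptide signalling genes and in the markers of amacrine and horizontal cells and of ganglion cells, with the list median as an orange bar; the dashed line is the median of all named genes. The granule proteins have the highest median and the receptors the lowest.

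Markers of the cell types that could make the peptides were read in the same pool. Of 25 amacrine and horizontal cell markers, 23 carried a symbol and all 23 reached FPKM 1, with a median of 10.1 FPKM and a range from 1.25 (Lhx1) to 148 FPKM (Calb2, calretinin). Pax6, a transcription factor listed for these cells, was at 92.3 FPKM, and which cells of the eye made it was not tested. Of 18 ganglion cell markers, 15 carried a symbol and all 15 reached FPKM 1, with a median of 9.79 FPKM. Nefl (98.9 FPKM over 2 transcripts), Thy1 (57.6 FPKM) and Sncg (36.5 FPKM) were highest and Eomes was lowest at 1.73 FPKM. Pou4f2 and Pou4f3 were read from a shared transcript (1.86 FPKM), and the transcript of Chat (3.21 FPKM) also enters the level of Slc18a3. The counts and medians of these lists hold such genes separately. For scale, 93.2% of all named genes reached FPKM 1. Penk, Cartpt and Tac1 lay above the median of both lists, and the other 7 precursors below both.

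Other tissue of the eye was present as well. Summed over the transcripts of the measured markers, each counted a single time, the levels were 2156 FPKM for Müller glia and astrocytes, 587 FPKM for amacrine and horizontal cells, 560 FPKM for skeletal muscle, 351 FPKM for ciliary body and iris, 286 FPKM for Schwann cells, 280 FPKM for ganglion cells, 158 FPKM for blood vessels and 137 FPKM for immune cells. Which cells of the eye made each marker was not tested, so a sum is not a measure of RNA from that cell type. In the glial list, Apoe (818 FPKM), Rlbp1 (432 FPKM) and Clu (386 FPKM) were highest. Kcnj10 (3.84 FPKM) was lowest of 12 measured genes. Apoe rests on transcripts of 299 and 257 nt, and without transcripts under 500 nt the sum of the glial list was 1338 FPKM. The muscle list was led by Tnnc2 (174 FPKM), Mb (127 FPKM) and Mylpf (78.4 FPKM), with Actn3 (2.64 FPKM) lowest of 9. In the list of ciliary body and iris, which is partly pigment cells, Tyrp1 (152 FPKM), Myoc (85.0 FPKM) and Car2 (59.2 FPKM) were highest and Car4 (1.26 FPKM) lowest of 11. In the Schwann cell list the myelin gene Mbp, which oligodendrocytes of the optic nerve also make, was at 118 FPKM, Pmp22 at 27.5 FPKM and Prx, the lowest of 6, at 4.26 FPKM. Of the blood vessel list, Rgs5 (96.0 FPKM), Des (16.6 FPKM) and Kdr (12.9 FPKM) were highest and Cspg4 (0.975 FPKM) lowest of 10. Of the immune list, Cd74 (70.0 FPKM), Lyz2 (24.4 FPKM) and Csf1r (12.1 FPKM) were highest and Cd79a (0.526 FPKM) lowest of 13. Of 16 markers of sensory and autonomic neurons, 3 carried a symbol. Among them, Isl1, which is also made in the retina, was at 9.82 FPKM and Prph at 1.82 FPKM. Which of these cells made each precursor was not tested.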

How the data were processed

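Eye RNA of the Nile rat was deposited as 1 column of values; whether it sums the 5 labelled samples or holds 1 library is not stated. Per the file headers, the authors' FPKM values divide fragments by transcript length and by 64967222 mapped fragments, and this was rebuilt within a relative tolerance of 1e-05. The estimated counts of fragments per transcript deposited by the authors need not be whole, and 39.3% of transcripts held a fraction. Bowtie is named in the submitters' processing notes; the version of Bowtie, the assembly and the counting tool: not given in the sources used here.

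The level of a gene was the summed FPKM of all transcripts with its symbol in any species column. All named genes were counted by the first symbol in the order mouse, rat, human, giving 15455 transcripts. Level intervals are 95% gamma intervals (Fay-Feuer) for Poisson counts and ratio intervals use the delta method. Both were tested on counts simulated from the same Poisson model. That test could not show the effect of PCR copies or divided fragments, which were not simulated. The intervals cover counting error only, and may be too narrow even for that, since PCR copies are not independent molecules. A count of 0 allows up to 3 fragments, or 0.0269 to 0.118 FPKM over the lengths of the 10 transcripts. Nearly all named genes lay above that limit, and only 1.09% had a lower FPKM than Ghrh (0.510 FPKM). Shares at FPKM 1 therefore describe genes that carry a symbol and mostly exceed the level of Ghrh. Whether transcripts of low level were left out before deposition was not tested. No test and no p-value was computed. The labels' 5 samples could not be separated.

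The genes and lists were chosen with earlier results of these data known. Named were the 10 precursors, every measured receptor, and the 3 highest and the lowest gene of each other list; some genes under this rule are not reported here but enter the counts, medians and sums. Further genes were chosen after their values were seen. The alternatives were other ways to combine and name transcripts, length, scaling and thresholds. Scripts ran in Python 3.11.15 with SciPy 1.17.1 and NumPy 2.4.6, tables were read with pandas 2.3.3, and plots were drawn in Matplotlib 3.10.9. The deposited table of Ensembl identifiers was not used.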

Additional observations from a re-analysis of the deposited data

How the results depend on the processing

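With the highest transcript or a length-weighted mean in place of the sum, the levels of the 10 precursors are equal by construction, since 1 transcript carried each. Requiring the symbol in every species column that holds a symbol removed Cartpt, whose rat name is Cart, and leaving out transcripts under 500 nt removed Nppb; neither then has a value. Rescaling to a sum of 1000000 multiplied every level by 0.729 over all transcripts and by 4.06 over transcripts with a symbol, where the median of the 10 was 28.5, and left all ratios as they were. At FPKM of at least 10 in place of 1, 3 precursors counted as detected. With fragments not divided by length, 6 of the 10 genes stood at their place in the FPKM order. The other 71 values of counts, medians and resolved steps were within 1.5 times those reported. Replicates could not be left out, and no paired analysis was possible because the table has no column per sample. Depth limits Nppb and Crh most: the average half-width of the interval was 56.6% of the level for Nppb and 27.2% for Crh, against 4.18% for Penk.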
